A study of Homo sapiens with 24 samples.

Results

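ESR2-transduced HCT116 cells were compared with parental HCT116 cells in normoxia without estradiol, on the 3 arrays titled as ESR2 normoxia controls and the 3 titled as normoxia controls, 6 of the 24 arrays of the series. HCT116 is an established human colon cancer line. Per the labels, the ESR2 cells overexpress full-length ESR2, which encodes estrogen receptor beta, with an N-terminal HaloTag, from a lentiviral vector (pWPI-IRES-GFP-PGK-Puro). They were selected with puromycin, and more than 80% of the transduced cells expressed GFP, and no step that picks a single clone is described. The parental cells have the genotype label WT and are not labelled as carrying an empty vector, so the effects of the receptor, the HaloTag, GFP, the infection and the selection cannot be told apart. Neither group received estradiol; the labels give stripped serum and phenol-red-free medium for estradiol treatment, and whether the untreated groups shared that medium is not given in the sources used here. The other 18 arrays hold the same 2 kinds of cells in normoxia with 10 nM estradiol and in hypoxia without and with it, 3 arrays each. Total RNA was measured on Affymetrix 3′ expression arrays, and each value below is the authors' RMA signal on a log2 scale, for the brightest probe set of each of 18239 genes.

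Estrogen receptor beta is a nuclear receptor that binds estrogen response elements in DNA as a dimer, or reaches DNA through other factors such as AP-1, and changes transcription of nearby genes. It is the predominant estrogen receptor of normal colon epithelium and is commonly reduced in colorectal tumours. HCT116 cells carry functional p53, which is background for the p53 target genes below.

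Differences are ESR2 minus parental on the log2 scale, with limma's standard error (SE), and a gene is called at a Benjamini-Hochberg adjusted p under 0.05 in a limma fit to all 24 arrays. Whether the replicates of a group came from separate cultures is not labelled; p-values therefore reflect the scatter among these arrays alone, part of which may be technical. Precision is limited by 3 arrays per group, and in bulk RNA fewer cells of a kind and less RNA per cell cannot be told apart. Replicate 2 of the parental cells stood apart. It correlated with the other parental arrays at 0.988 and 0.989 across probe sets, whereas those correlated at 0.998 with each other and the ESR2 arrays at 0.997. The mean excess of its 3′ over its 5′ control signals was 4.34, against 2.28 to 3.10 on the other 5 arrays, and its 18S ribosomal RNA 5′ signal was 7.51, against 12.5 to 12.7. On that array 201 genes differed by more than 1 from the mean of the other parental arrays, whereas 0 genes differed by more than 1 between those. Counts over gene lists and the differences of the leading genes are therefore also given, as "without replicate 2", from the fit that leaves that array out. For any other gene the value without it, or the loss of its call, is given where the call was lost or its difference moved by over 1.5 times. Ranges given "with single arrays left out" come from the 6 fits that each omit 1 of the 6 arrays. No batch is named in the labels.

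The labelled cell type was checked first. Of 12 colon epithelial markers 6 had a mean signal under 5 in both groups, near the median of all genes (4.97), and their summed linear signal was 6746 to 6886 on ESR2 arrays and 5594 to 6368 on parental arrays. EPCAM, KRT19, KRT18 and KRT8 were its bright members, whereas markers of mature colon cells such as VIL1, CEACAM5 and LGALS4 were under 5. All 11 fibroblast markers and 10 of 11 leukocyte markers had means under 5 in both groups. The summed signals of the fibroblast list were 96.3 to 99.5 on ESR2 arrays and 99.7 to 106 on parental arrays, those of the leukocyte list 134 to 138 and 146 to 187, and those of 10 markers of embryonic kidney lines, a common source of packaged virus, 167 to 180 and 166 to 175. Among these 3 lists the only calls were a fall of CD68, a lysosomal protein abundant in macrophages (-0.75, SE 0.14, limma adjusted p = 0.000651), and a rise of SIX2 (0.37, SE 0.080, adjusted p = 0.0021). The part of other cells in the results was not tested.

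The signal of ESR2 was higher in the ESR2 cells on every array, as the labels state. It was 4.89, 4.03 and 4.63 in ESR2 cells, against 3.35, 3.54 and 3.52 in parental cells, and the difference was 1.05 (SE 0.13, limma adjusted p = 6.44e-06). ESR2 replicate 2 was the lowest of the ESR2 arrays and still above all parental arrays. Of the 8 probe sets for the gene 4 rose (7.65% of all 45253 probe sets did), by 0.93 to 1.36, and the other 4 were not called, with differences between -0.11 and 0.09. All 6 signals lay below the median gene (4.97). In the other settings the ESR2 signal averaged 4.41 ± 0.07 in ESR2 cells and 3.44 ± 0.14 in parental cells in normoxia with estradiol, 4.07 ± 0.11 and 3.43 ± 0.11 in hypoxia, and 3.93 ± 0.02 and 3.48 ± 0.07 in hypoxia with estradiol (SD, n = 3 each). The plot of the ESR2 signal by array shows that the ESR2 arrays of normoxia without estradiol had the widest spread of the 8 groups (SD 0.44).

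**Figure D1:**
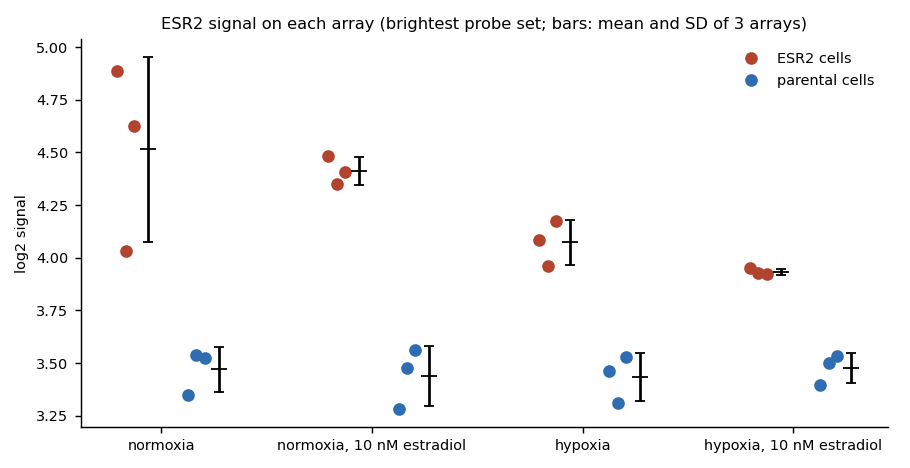
Log2 signal of the brightest ESR2 probe set on each of the 24 arrays, in ESR2 cells (red) and parental cells (blue) of each setting; bars show the mean and SD of 3 arrays. The 3 ESR2 arrays lie above the 3 parental arrays in all 4 settings, from 4.03 to 4.89 against 3.35 to 3.54 in normoxia without estradiol.

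In ESR2 cells 3396 of 18239 genes were called (18.6%), of which 1780 were higher (9.76%) and 1616 lower (8.86%). Without replicate 2 these were 2649 genes (14.5%), 1484 higher (8.14%) and 1165 lower (6.39%). Calls in the same direction with and without that array covered 2213 genes (12.1%), 1218 higher (6.68%) and 995 lower (5.46%). Large changes leaned upwards, since 57 genes were called higher and 10 lower by 2-fold or more, and 42 and 8 passed that size in both fits. The median difference over all genes was -0.01, and 0.01 without replicate 2. A fit to the 6 arrays alone, whose spread rests on 4 residual degrees of freedom, called 1061 genes, 643 higher and 418 lower. In the fit to all groups, leaving out ESR2 replicate 2 lowered the falls to 991. Centring the arrays on their medians, which moved the median difference to -0.04, gave 1422 rises and 2185 falls.

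The genes described next are the 15 largest rises and the 15 largest falls among 1896 genes that were called the same way with and without replicate 2, whose groups did not overlap (29.4% of all genes had groups that did not) and whose higher group lay above the median gene. All 30 were therefore separated by choice, and their sizes are what is described. The largest rise was that of MAL2, a membrane protein of apical transport in epithelial cells. Its signals were 7.62, 7.96 and 7.40 in ESR2 cells, against 4.04, 3.88 and 4.24 in parental cells, a 12.2-fold difference (3.61, SE 0.17, limma adjusted p = 1.47e-12), and its other probe set rose by 0.90. GASK1B, a kinase-related protein of the Golgi, gave 7.80, 8.02 and 7.36 in ESR2 cells, against 4.40, 4.07 and 4.33 in parental cells (11-fold); 4 of its 5 probe sets rose, and the lowest differed by 0.03. Averaged over all of their probe sets, these genes differed by 2.25 and 2.02. On the brightest probe set both genes lay below the median gene in every parental sample and well above it in every ESR2 sample. GDF15, a secreted stress cytokine and a target of p53, gave 6.58, 7.09 and 6.62 in ESR2 cells, against 3.81, 3.07 and 3.63 in parental cells (9.59-fold). SMARCA1, the ATPase of ISWI chromatin remodelling complexes, gave 6.82, 7.06 and 6.77 in ESR2 cells, against 4.09, 3.32 and 3.81 in parental cells (8.81-fold), and all 5 of its probe sets rose, by 2.77 to 3.35. The parental means of GDF15 and SMARCA1 lay within the range of the fibroblast markers in parental cells (2.39 to 3.87), so they are not shown to be above background and these folds compare signals only. Parental replicate 2 was the lowest array for each of these 4 genes, and without it the differences were 3.52, 3.36, 3.04 and 2.93.

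PDE4B, which degrades cyclic AMP, gave 7.70, 7.72 and 7.66 in ESR2 cells, against 5.61, 5.78 and 5.94 in parental cells, a difference of 1.92 (SE 0.11). Of its 4 probe sets 2 rose, the lowest differed by 0.14, and their mean differed by 0.66. DIRAS3, an imprinted Ras-related GTPase that restrains growth, rose by 1.91 (SE 0.14), SCG2, a granin of secretory vesicles, by 1.67 (SE 0.10), and ADIRF, a factor named for its role in adipocyte formation, by 1.92 (SE 0.17). The parental mean of DIRAS3 (3.25) also lay within the range of the fibroblast markers in parental cells (2.39 to 3.87) and is not shown to be above background. MAOB, which oxidises monoamines at the mitochondrial surface, gave 7.33, 7.30 and 7.55 in ESR2 cells, against 5.83, 5.72 and 5.77 in parental cells, and CD24, a glycoprotein of epithelial and progenitor cell surfaces, gave 8.14, 8.07 and 7.92 in ESR2 cells, against 6.41, 6.43 and 6.50 in parental cells. The parental arrays of both lay close together, far below the ESR2 arrays, and the differences were 1.62 and 1.60. TRIM2, a ubiquitin ligase, rose by 1.74 (SE 0.13) with all 3 of its probe sets. NEBL, an actin-binding protein of the nebulin family, rose by 1.59 (SE 0.13) on 1 of its 5 probe sets, and its lowest probe set differed by -0.08. Without replicate 2 the differences of PDE4B, DIRAS3, SCG2, ADIRF, MAOB, CD24, TRIM2 and NEBL were 1.92, 1.79, 1.52, 1.98, 1.59, 1.59, 1.65 and 1.44. TP53INP1, CXCL10 and IFIH1, at 2.19, 2.21 and 1.36 without it, complete the leading rises and are described with the p53 and interferon genes.

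**Figure D2:**
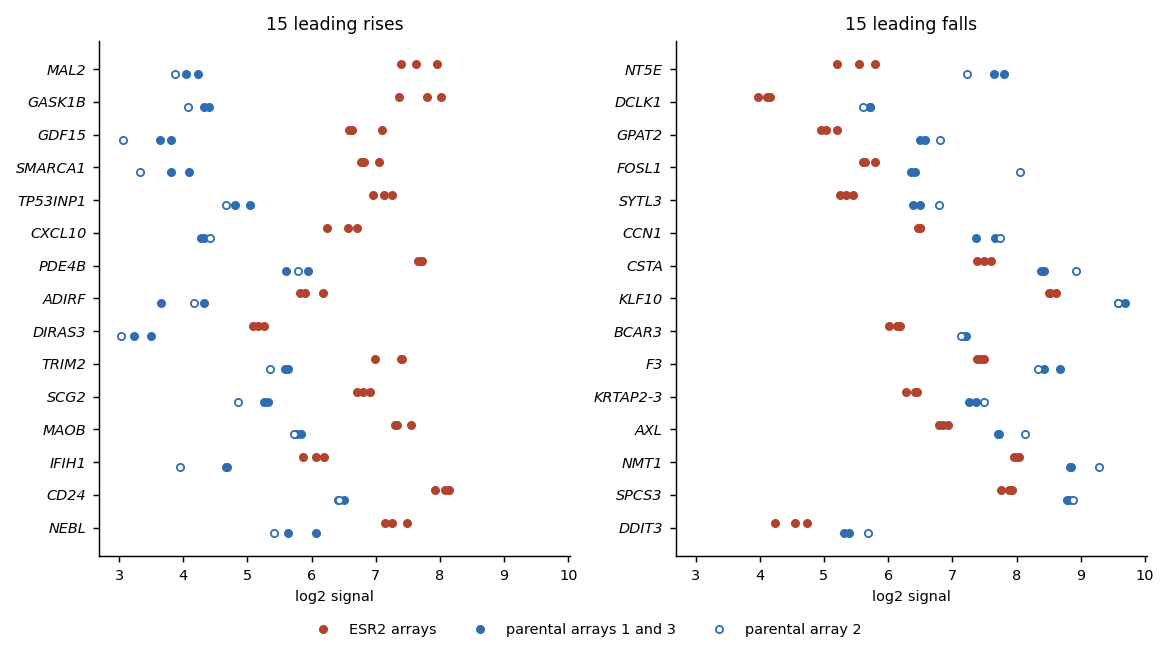
Log2 signal on each array for the 15 leading rises (left) and 15 leading falls (right), ESR2 arrays in red above parental arrays in blue, with parental replicate 2 as an open circle. The groups do not overlap for any of the 30 genes, as the rule for choosing them asks; the open circle for FOSL1 stands at 8.05, against 6.42 and 6.35 on the other parental arrays.

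The largest fall was that of NT5E, the surface enzyme CD73, which makes adenosine outside the cell. Its signals were 5.79, 5.55 and 5.20 in ESR2 cells, against 7.81, 7.23 and 7.64 in parental cells, a 4.13-fold lower level (-2.05, SE 0.16, limma adjusted p = 4.86e-09), and all 3 of its probe sets fell. DCLK1, a microtubule-associated kinase known as a tuft cell marker of the gut, gave 4.17, 3.97 and 4.12 in ESR2 cells, against 5.72, 5.60 and 5.71 in parental cells (-1.60, SE 0.098), on 1 of 6 probe sets. GPAT2, a mitochondrial acyltransferase of glycerolipid synthesis, gave 5.03, 4.95 and 5.21 in ESR2 cells, against 6.57, 6.81 and 6.50 in parental cells (-1.57, SE 0.090), on 2 of 3 probe sets. In ESR2 cells GPAT2 lay near the median gene and DCLK1 below it on every array. Without replicate 2 the differences of NT5E, DCLK1 and GPAT2 were -2.21, -1.63 and -1.47.

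CCN1, a matrix protein induced by growth factors and by YAP, gave 6.50, 6.50 and 6.47 in ESR2 cells, against 7.66, 7.74 and 7.38 in parental cells (-1.10, SE 0.15, limma adjusted p = 1.2e-05). AXL, a receptor tyrosine kinase, gave 6.85, 6.79 and 6.93 in ESR2 cells, against 7.71, 8.13 and 7.72 in parental cells (-0.999, SE 0.085), and F3, tissue factor, which starts blood clotting, gave 7.50, 7.38 and 7.45 in ESR2 cells, against 8.67, 8.33 and 8.44 in parental cells (-1.03, SE 0.078). For these 3 genes the ESR2 arrays lay closer together than the parental arrays, and all below them. AXL fell on 1 of its 2 probe sets, the other differed by -0.34, and their mean differed by -0.67. BCAR3, an adaptor protein first found through antiestrogen resistance of breast cancer cells, fell by 1.07 (SE 0.11), KLF10, a zinc finger factor induced by TGF-beta, by 1.07 (SE 0.087), SYTL3, a vesicle trafficking protein, by 1.21 (SE 0.091), and CSTA, a protease inhibitor of keratinocytes, by 1.09 (SE 0.097). FOSL1, a subunit of AP-1, gave 5.61, 5.64 and 5.80 in ESR2 cells, against 6.42, 8.05 and 6.35 in parental cells. Its difference of -1.26 (SE 0.25) was -0.70 without parental replicate 2, which held the highest value, and its limma adjusted p was 0.000853 with that array, 5.97e-06 without it and 0.118 in the fit to the 6 arrays alone. DDIT3, the stress factor CHOP, gave 4.24, 4.55 and 4.74 in ESR2 cells, against 5.31, 5.68 and 5.39 in parental cells (-0.95, SE 0.12). Without replicate 2 the differences of CCN1, AXL, F3, BCAR3, KLF10, SYTL3, CSTA and DDIT3 were -1.03, -0.86, -1.11, -1.09, -1.09, -1.09, -0.91 and -0.84.

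For the remaining falls the identity or size of the change is uncertain. The KRTAP2-3 probe set (-0.9999, SE 0.072) represents a keratin-associated protein with near-identical family members, which can share signal. NMT1, which attaches myristate to proteins, fell by 0.98 (SE 0.097), but of its 4 probe sets 2 fell and 1 rose. SPCS3, a subunit of signal peptidase, fell by 0.97 (SE 0.076), and of its 3 probe sets 2 fell and 1 rose. For both genes, probe sets of 1 gene moved in opposite directions. Without replicate 2 KRTAP2-3, NMT1 and SPCS3 differed by -0.94, -0.83 and -0.94.

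Targets of p53, the stress-activated factor that halts the cell cycle and can start apoptosis, were mostly higher in ESR2 cells. Of 36 measured targets 20 rose (55.6%, against 9.76% of all genes) and 3 fell, with a median difference of 0.33 against -0.01 over all genes. Without replicate 2 the counts were 17 and 3. In the fit to the 6 arrays alone they were 13 and 1, where 643 of all 18239 genes rose and 418 fell. TP53INP1, a nuclear protein induced by p53, gave 7.13, 7.25 and 6.96 in ESR2 cells, against 5.05, 4.66 and 4.80 in parental cells (2.28, SE 0.15, limma adjusted p = 6.32e-10); its second probe set differed by 0.05 and was not called. CDKN1A, the p21 inhibitor of cyclin-dependent kinases, gave 9.49, 9.32 and 9.59 in ESR2 cells, against 7.83, 8.37 and 7.93 in parental cells (1.43, SE 0.10). TP53I3, an oxidoreductase induced by p53, gave 7.37, 7.16 and 7.39 in ESR2 cells, against 5.75, 6.16 and 6.15 in parental cells (1.29, SE 0.10). In each of these genes, as in GDF15, the lowest ESR2 array lay above the highest parental array; 29.4% of all genes were separated one way or the other, and naming list genes by their small p-values favours it. The 3 targets that fell, named after their values were seen, were GADD45A (-0.37), AEN (-0.32) and SESN2 (-0.20), and SESN2 was not called without replicate 2.

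Among 30 genes of the BCL2 family and death receptors 5 rose (16.7%) and 1 fell (3.33%), against 9.76% and 8.86% of all genes. Without replicate 2 the counts were 2 and 1. With single arrays left out the rises numbered 2 to 5, fewest without parental replicate 2, and the falls 0 to 4, fewest without ESR2 replicate 2 and most without parental replicate 1. FAS, the death receptor, gave 6.29, 5.94 and 5.93 in ESR2 cells, against 5.07, 4.60 and 4.89 in parental cells (1.20, SE 0.11, limma adjusted p = 5.79e-08), and BAX, which permeabilises mitochondria, gave 6.24, 6.09 and 6.25 in ESR2 cells, against 5.55, 4.61 and 5.30 in parental cells (1.04, SE 0.16, adjusted p = 7.77e-05). Both are also p53 targets, and both rose with and without replicate 2; the difference of BAX was 0.77 without it. XIAP, CASP8 and BIRC2 rose and CFLAR fell in the fit with all arrays, and none of these 4, named after their values were seen, was called without replicate 2. Of 26 genes of cell cycle entry and its inhibitors 5 rose (19.2%) and 8 fell (30.8%), with 4 and 7 without replicate 2. Besides CDKN1A, CDKN2B, the p15 inhibitor, rose by 0.84 (SE 0.11), whereas CDKN2D, the p19 inhibitor, fell by 0.62 (SE 0.093) and CDC25A, a phosphatase that activates cyclin-dependent kinases, by 0.51 (SE 0.080). With single arrays left out the rises numbered 2 to 5, fewest without ESR2 replicate 1, and the falls 5 to 8, fewest without ESR2 replicate 2. CCND1, cyclin D1, differed by 0.03 and was not called with all arrays, and by -0.24 without parental replicate 2 (adjusted p = 0.00805). Of its 4 probe sets 2 fell, the lowest by 0.59, and their mean differed by -0.42 (adjusted p = 0.0613).

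**Figure D3:**
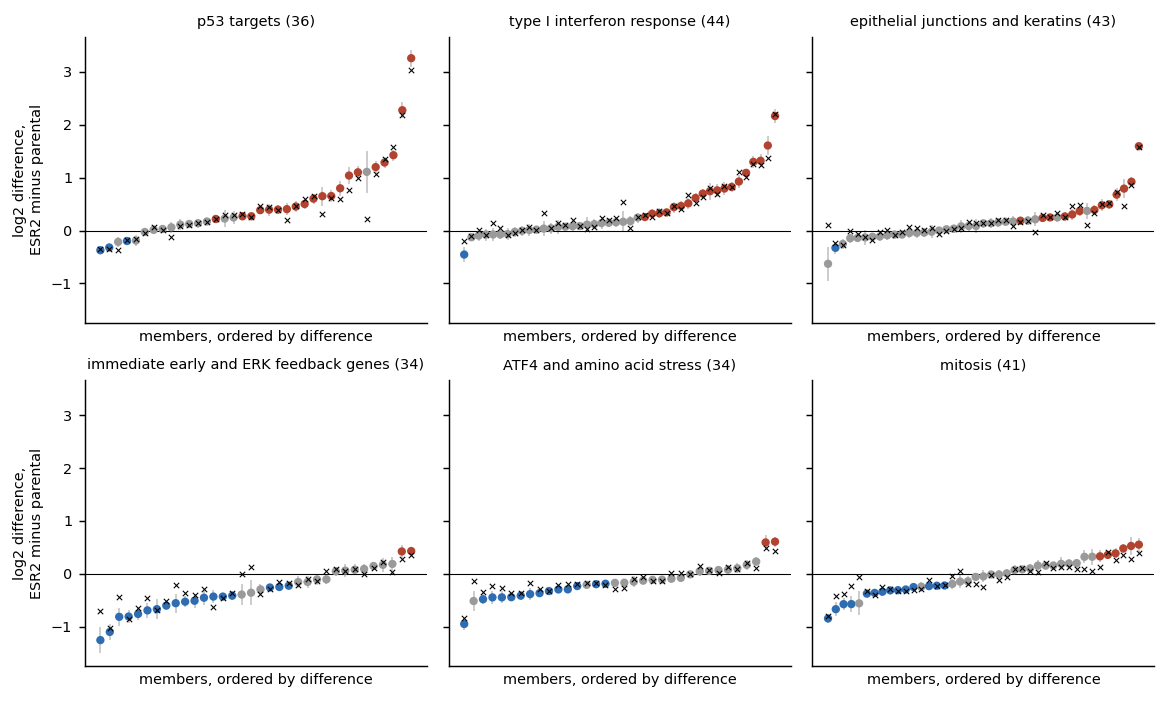
Log2 difference, ESR2 minus parental in normoxia, of every measured member of 6 gene lists, ordered by size within a list; points show the fit to all arrays with its SE (red, called higher; blue, called lower; grey, not called) and crosses the fit without parental replicate 2. The p53, interferon and junction lists hold more red points, 20, 19 and 13, and the immediate early, ATF4 and mitosis lists more blue points, 18, 14 and 14.

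Genes of the type I interferon response, which cells switch on when they sense viral nucleic acid or interferon, rose more often than they fell. Of 44 measured genes 19 rose (43.2%, against 9.76% of all genes) and 1, IRF1 (-0.45), fell (2.27%, against 8.86%), a fall that was not called without replicate 2. The median difference was 0.16, and without replicate 2 the counts were 20 and 0 and the median 0.24. The fit to the 6 arrays alone called 14 rises and 0 falls, against 643 and 418 over all 18239 genes. CXCL10, a chemokine that attracts T cells, gave 6.57, 6.71 and 6.24 in ESR2 cells, against 4.32, 4.42 and 4.27 in parental cells (2.17, SE 0.13, limma adjusted p = 9.56e-11). IFIT1, which binds viral RNA, gave 9.54, 9.51 and 9.50 in ESR2 cells, against 8.43, 8.28 and 8.57 in parental cells (1.09, SE 0.080), and its relatives IFIT2 and IFIT3 rose by 1.32 (SE 0.13) and 1.30 (SE 0.12). IFIH1, the cytosolic RNA sensor MDA5, gave 6.19, 6.06 and 5.86 in ESR2 cells, against 4.67, 3.94 and 4.68 in parental cells (1.61, SE 0.18); its second probe set differed by -0.10 and was not called. The groups were separated for these 5 genes, as for 29.4% of all genes. Of the list 17 genes had means under 5 in both groups, where RMA compresses differences.

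The promoter windows of 4 genes that rose are shown because they hold the core letters of the interferon-stimulated response element, GAAANNGAAA on either strand, which the sequences carry in capitals. The windows are RefSeq sequences of GRCh38.p14 from 250 bases before to 50 bases after the gene start, on the gene's strand. CXCL10 lies at chr4:76023448-76023747 on the minus strand, IFIH1 at chr2:162318635-162318934 on the minus strand, IFIT3 at chr10:89327747-89328046 on the plus strand and TRIM2 at chr4:153151913-153152212 on the plus strand.
CXCL10: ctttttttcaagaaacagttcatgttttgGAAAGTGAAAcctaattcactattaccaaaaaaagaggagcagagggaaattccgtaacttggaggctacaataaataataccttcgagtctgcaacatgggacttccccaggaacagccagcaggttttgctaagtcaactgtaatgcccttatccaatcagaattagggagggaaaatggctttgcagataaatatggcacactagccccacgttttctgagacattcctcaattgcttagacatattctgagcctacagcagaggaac
IFIH1: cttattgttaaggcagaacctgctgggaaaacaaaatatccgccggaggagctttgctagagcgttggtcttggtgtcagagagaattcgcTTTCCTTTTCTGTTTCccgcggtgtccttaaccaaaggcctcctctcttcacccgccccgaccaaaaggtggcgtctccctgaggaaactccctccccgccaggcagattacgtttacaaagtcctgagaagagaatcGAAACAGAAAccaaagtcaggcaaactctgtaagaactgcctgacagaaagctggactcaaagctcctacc
IFIT3: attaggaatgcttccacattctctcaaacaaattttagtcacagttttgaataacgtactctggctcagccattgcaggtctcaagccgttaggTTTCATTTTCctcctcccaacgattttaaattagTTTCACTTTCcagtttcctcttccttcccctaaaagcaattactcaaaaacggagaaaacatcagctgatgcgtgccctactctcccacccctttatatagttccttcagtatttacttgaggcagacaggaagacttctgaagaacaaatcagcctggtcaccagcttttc
TRIM2: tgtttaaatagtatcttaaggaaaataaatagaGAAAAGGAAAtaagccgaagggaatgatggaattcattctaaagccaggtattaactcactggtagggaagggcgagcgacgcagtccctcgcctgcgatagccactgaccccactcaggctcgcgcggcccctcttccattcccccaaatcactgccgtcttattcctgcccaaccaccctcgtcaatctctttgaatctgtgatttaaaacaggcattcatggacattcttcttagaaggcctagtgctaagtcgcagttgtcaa
The first capital stands 221 bases before the gene start in CXCL10 and 217 bases before it in TRIM2. IFIH1 has 3 matches, 2 of which overlap and start 159 and 153 bases before the gene start and the third 21 bases before it, and IFIT3 has matches that start 156 and 122 bases before it. A window was found for 14492 of the 18239 genes, and 3.04% of them hold the core. It occurred in 22 of the 35 interferon list genes with a window (62.9%), in 4.12% of 1019 genes that rose in both fits and in 2.18% of 826 that fell. Among the leading rises 3 of 12 with a window held it, CXCL10, IFIH1 and TRIM2, and among the leading falls 0 of 11. Other named genes that held it, not printed here, include IFIT1, HLA-F, ERAP1 and ABCC2, which rose, and RELA, which fell (-0.29). A match is a description of the letters and not evidence of a working site.

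Genes of antigen presentation moved less uniformly. Of 23 measured genes 5 rose (21.7%) and 2 fell (8.70%), against 9.76% and 8.86% of all genes. Without replicate 2 the counts were 7 and 1. HLA-DRA, a chain of class II molecules that epithelial cells show under interferon gamma, gave 5.74, 5.89 and 6.11 in ESR2 cells, against 4.50, 4.47 and 4.40 in parental cells (1.46, SE 0.085, limma adjusted p = 4.99e-11), and HLA-F, a non-classical class I gene of a family whose members can share probes, gave 6.61, 6.47 and 6.60 in ESR2 cells, against 5.57, 5.51 and 5.38 in parental cells (1.07, SE 0.080). PSMB9, a subunit of the immunoproteasome, rose by 0.53 (SE 0.096) and ERAP1, which trims peptides, by 0.56 (SE 0.12). The genes that fell, named after their values were seen, were TAP2 (-0.34) and CIITA (-0.20), and CIITA was not called without replicate 2. The falls of this list numbered, with single arrays left out, 0 to 2, fewest without ESR2 replicate 2. Of 34 genes of NF-kB and cytokines 5 rose (14.7%) and 6 fell (17.6%), and without replicate 2 the counts were 3 and 4. Its rises numbered, with single arrays left out, 1 to 6, fewest without ESR2 replicate 1. The cytokine gene IL18 rose by 0.78 (SE 0.11), whereas SOD2, the mitochondrial superoxide dismutase, fell by 0.49 (SE 0.085), the inhibitor gene NFKBIE by 0.43 (SE 0.086) and RELA, the p65 subunit, by 0.29 (SE 0.068).

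Immediate early genes, which growth factors induce within minutes through ERK and serum response factor, and ERK's own feedback inhibitors were mostly lower in ESR2 cells. Of 34 measured genes 18 fell (52.9%, against 8.86% of all genes) and 2 rose, with a median difference of -0.33. Without replicate 2 the counts were 15 and 1 with a median of -0.21. In the fit to the 6 arrays alone they were 8 and 1, where 418 of all 18239 genes fell and 643 rose. Besides CCN1, CCN2, the connective tissue growth factor gene, gave 6.17, 6.13 and 6.26 in ESR2 cells, against 7.15, 6.91 and 6.94 in parental cells (-0.81, SE 0.12, limma adjusted p = 2.86e-05). DUSP4 gave 8.88, 8.84 and 8.89 in ESR2 cells, against 9.31, 9.24 and 9.36 in parental cells (-0.43, SE 0.058), and DUSP5 gave 8.91, 8.79 and 8.87 in ESR2 cells, against 9.40, 9.65 and 9.33 in parental cells (-0.60, SE 0.081); both encode phosphatases that inactivate ERK. The ESR2 arrays were below every parental array for these 4 genes, as for 15% of all genes, and naming genes by small p-values or large differences favours it. DUSP6 (0.43) and FOSL2 (0.42), named after their values were seen, rose, and FOSL2 was not called without replicate 2. NR4A1, an orphan nuclear receptor induced by growth factors, fell by 0.82 with all arrays and differed by -0.45 without replicate 2, and JUN fell by 0.67 (SE 0.19) and by a similar size without it (-0.68); both were named after their values were seen. MYC, which belongs to this list and to that of ribosome biogenesis, fell by 0.23 (adjusted p = 0.0157), a call that was lost without parental replicate 2 (-0.18, adjusted p = 0.0867) or ESR2 replicate 2 (-0.20).

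The ligands and receptors of neighbouring pathways gave mixed directions. Of 18 genes of the EGF receptor family and its ligands 3 rose (16.7%) and 3 fell (16.7%), against 9.76% and 8.86% of all genes. Without replicate 2 the counts were 2 and 3. The rises numbered 2 to 5 with single arrays left out, most without parental replicate 1. EREG, epiregulin, gave 9.95, 9.98 and 9.72 in ESR2 cells, against 8.96, 8.38 and 8.96 in parental cells (1.12, SE 0.11, limma adjusted p = 1.18e-07), and ERRFI1, an inhibitor of the EGF receptor, rose by 0.45 (SE 0.072), whereas the ligand HBEGF fell by 0.43 (SE 0.099) and LRIG3, a membrane protein related to a negative regulator of the receptor, by 0.40 (SE 0.12), a call lost without parental replicate 3 (-0.36) or ESR2 replicate 2 (-0.35). Of 32 genes of BMP and TGF-beta signalling 7 rose (21.9%) and 5 fell (15.6%), with 7 and 6 without replicate 2. The falls numbered 3 to 6 with single arrays left out, fewest without ESR2 replicate 2. GDF15 is 1 of the rises. TGFBR1, the type I receptor, rose by 0.56 (SE 0.092) on 1 of its 3 probe sets. The lowest of these differed by -0.28, and the call was lost with their mean (0.13, adjusted p = 0.205) and in the fit to the 6 arrays alone (adjusted p = 0.0599). SMAD3, which carries the receptor's signal, fell by 0.67 (SE 0.11), as did SMAD7, an inhibitor of it and a target of the pathway, by 0.72 (SE 0.11). Of 30 Wnt targets 5 rose (16.7%) and 4 fell (13.3%), with 3 and 3 without replicate 2. The rises numbered 1 to 3 with single arrays left out, fewest without ESR2 replicate 2. SOX9, a factor of crypt base cells, rose by 0.65 (SE 0.10), AXIN2, a feedback inhibitor, differed by 0.29 at a limma adjusted p of 0.0461, a call that was lost in 9 of 16 alternatives, with differences of 0.24 to 0.37 when single arrays were left out, and NKD2 and BIRC5 fell by 0.53 and 0.32.

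Targets of ATF4, the factor of the amino acid and integrated stress response, fell more often than they rose. Of 34 measured genes 14 fell (41.2%, against 8.86% of all genes) and 2 rose, with a median difference of -0.17. Without replicate 2 the counts were 10 and 2. In the fit to the 6 arrays alone they were 4 and 1, where 418 of all 18239 genes fell and 643 rose. Besides DDIT3, TRIB3, a pseudokinase induced by stress, gave 7.53, 7.42 and 7.55 in ESR2 cells, against 7.84, 8.10 and 7.91 in parental cells (-0.44, SE 0.075, limma adjusted p = 0.000191), and SLC3A2, the heavy chain of amino acid exchangers, gave 7.76, 7.89 and 7.93 in ESR2 cells, against 8.16, 8.63 and 8.24 in parental cells (-0.48, SE 0.097). ATF4 itself fell by 0.30. The 2 rises were those of amino acid transporters, SLC38A2 (0.61, SE 0.092) and SLC7A11 (0.59, SE 0.14), and SLC7A11 is also a target of NRF2.

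NRF2 drives genes of antioxidant defence, and of 25 measured targets 9 rose (36%) and 0 fell, with a median of 0.07 and 6 rises without replicate 2 (0 to 2 falls with single arrays left out, most without parental replicate 3). NQO1, a quinone reductase, gave 10.74, 10.68 and 10.75 in ESR2 cells, against 9.65, 9.83 and 9.79 in parental cells (0.97, SE 0.062, limma adjusted p = 1.97e-10). ABCC2, an export pump for conjugates, gave 7.55, 7.73 and 7.53 in ESR2 cells, against 6.52, 6.73 and 6.78 in parental cells (0.93, SE 0.083), and PGD, an enzyme of the pentose phosphate pathway, rose by 0.77 (SE 0.11). The ESR2 and parental arrays of NQO1 and ABCC2 did not overlap, as for 29.4% of all genes, and without replicate 2 the differences were 1.00 and 0.95. Other stress lists were small or divided. The ER chaperone list also holds genes that do not encode chaperones. Of its 28 genes 4 fell (14.3%, against 8.86% of all genes) and 1 rose (3.57%, against 9.76%), with 4 and 0 without replicate 2. With single arrays left out the falls numbered 3 to 7, most without parental replicate 3, and the rises 0 to 4, fewest without ESR2 replicate 1 or parental replicate 2 and most without parental replicate 1. Those that fell were DERL1 (-0.43), HERPUD1 (-0.41), SDF2L1 (-0.32) and ATF6 (-0.38, not called without ESR2 replicate 3 at -0.32). Of these DERL1, HERPUD1 and ATF6 are not themselves chaperones. Of 23 heat shock genes 4 rose (17.4%) and 5 fell (21.7%), led by SERPINH1, the collagen chaperone (-0.73, SE 0.12), and DNAJA1 (0.47, SE 0.077). The counts were 2 and 5 without replicate 2, and the rises numbered 2 without ESR2 replicates 1 or 2. Of 15 metallothionein and zinc genes 2 rose (13.3%) and 5 fell (33.3%), with 2 and 4 without replicate 2. The zinc exporter SLC30A1 rose by 1.12 (SE 0.12) and the metallothionein MT1F, whose family members can share probes, fell by 0.54 (SE 0.087). Leaving out single arrays gave falls of 1 to 5, fewest without ESR2 replicate 2.

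The list of epithelial junctions and keratins, which hold epithelial cells together, also includes the surface glycoprotein CD24. Its members rose more often than they fell. Of 43 measured genes 13 rose (30.2%, against 9.76% of all genes) and 1, KRT80 (-0.33), fell (2.33%, against 8.86%), with a median of 0.14. The fall of KRT80 was not called without replicate 2. Without replicate 2 the rises numbered 12 and without ESR2 replicate 1 they numbered 8. In the fit to the 6 arrays alone they numbered 6, where 643 of all 18239 genes rose. Besides CD24, DSC2, a desmosomal cadherin, gave 7.73, 7.58 and 7.55 in ESR2 cells, against 6.82, 6.55 and 6.71 in parental cells (0.92, SE 0.082, limma adjusted p = 4.28e-08), and CDH1, E-cadherin, gave 6.92, 6.67 and 6.80 in ESR2 cells, against 6.16, 6.23 and 5.95 in parental cells (0.68, SE 0.13). CTNND1, the p120 catenin that holds cadherins at the membrane, rose by 0.50 (SE 0.081) on 1 of its 5 probe sets, whose mean differed by 0.08 and was not called (adjusted p = 0.412). KRT8 gave 9.03, 9.57 and 9.29 in ESR2 cells, against 8.78, 7.84 and 8.89 in parental cells (0.79, SE 0.18), and without parental replicate 2, the lowest array, its difference was 0.46; in the fit to the 6 arrays alone it was not called (adjusted p = 0.137). KRT19 differed by 0.25 (SE 0.053) and EPCAM by 0.19, which was not called without replicate 2.

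The list of epithelial-mesenchymal genes, which are raised or lowered when epithelial cells become migratory, held 6 rises and 4 falls among 35, with 7 and 5 without replicate 2. These 6 and 4 were 17.1% and 11.4% of the list, against 9.76% and 8.86% of all genes. FN1, fibronectin, gave 5.07, 5.07 and 5.18 in ESR2 cells, against 3.99, 3.72 and 3.58 in parental cells (1.34, SE 0.17, limma adjusted p = 7.49e-06), and S100A4, a calcium-binding protein of motile cells, gave 10.07, 10.23 and 10.25 in ESR2 cells, against 9.25, 9.17 and 9.37 in parental cells (0.92, SE 0.068). Of the 8 probe sets of FN1 1 rose, and their mean differed by 0.28. SNAI2, a repressor of E-cadherin, fell by 0.61 (SE 0.080), and AXL, described above, also belongs to this list. Of 23 genes of the integrin and laminin list, which also includes PXN, 3 rose (13%) and 4 fell (17.4%), with 4 and 4 without replicate 2. LAMB1, a laminin chain, gave 5.28, 5.13 and 5.22 in ESR2 cells, against 3.71, 3.94 and 3.90 in parental cells (1.36, SE 0.13), ITGB8 rose by 1.20 (SE 0.18) and ITGAV, which pairs with it, by 0.69 (SE 0.13), and PXN, paxillin, fell by 0.52 (SE 0.075). ITGB8 rose on 1 of 4 probe sets, whose mean differed by 0.30. The parental means of FN1 and LAMB1 lay within the range of the fibroblast markers in parental cells (2.39 to 3.87). They are therefore not shown to be above background. Genes of enterocyte and goblet differentiation were mostly dim: 33 of 38 had means under 5 in both groups. Of these 38 genes 1, FABP2, rose (0.21, not called without ESR2 replicate 2 at 0.19) and 3 fell, KLF4 (-0.76, SE 0.12), ATOH1 (-0.48, SE 0.082) and CA2 (-0.32, SE 0.067), with the same counts without replicate 2. The shares, 2.63% higher and 7.89% lower, lay below those of all genes.

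Genes of cell division were more often lower than higher, by small amounts. Of 41 mitosis genes 14 fell (34.1%, against 8.86% of all genes) and 6 rose (14.6%, against 9.76%), with a median of -0.05. Without replicate 2 the counts were 15 and 4. In the fit to the 6 arrays alone they were 4 and 0, where 418 of all 18239 genes fell and 643 rose. CDC25C, the phosphatase that starts mitosis, gave 6.41, 6.37 and 6.28 in ESR2 cells, against 7.06, 7.29 and 7.25 in parental cells (-0.85, SE 0.079, limma adjusted p = 8.12e-08). CCNB2, a cyclin, fell by 0.36 (SE 0.059) and KIF20A, a kinesin of cytokinesis, by 0.38 (SE 0.064). Of 48 DNA replication genes 12 fell (25%) and 2 rose (4.17%), with a median of -0.07. But the falls numbered 6 without replicate 2 and 1 in the fit to the 6 arrays alone. CDC45, a part of the replicative helicase, fell by 0.40 (SE 0.070) on 1 of its 3 probe sets; the highest differed by 0.35, and their mean by -0.04, which was not called (adjusted p = 0.874). RFC5, a clamp loader subunit, fell by 0.28 (SE 0.066), whereas ORC3 rose by 0.42 (SE 0.072). CHAF1B, a histone chaperone, differed by -0.49 with all arrays and by -0.31 without replicate 2. Of 41 genes of MYC and ribosome biogenesis 8 fell (19.5%) and 0 rose, with a median of -0.10. The falls numbered 3 without replicate 2, 5 without ESR2 replicate 1 and 2 without ESR2 replicate 2. UTP4 fell by 0.56 (SE 0.085) and RRP12 by 0.45 (SE 0.091), both factors of ribosomal RNA processing; HEATR1 differed by -0.24 and lost its call in 4 of 6 fits that left out 1 array (-0.32 to -0.17). Of 22 histone genes 3 rose (13.6%) and 2 fell (9.09%), led by H2BC5 (0.78, SE 0.11), whose family members can share probes. The counts were 2 and 1 without replicate 2, with 1 fall in 5 of the 6 fits that left out 1 array.

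**Figure D4:**
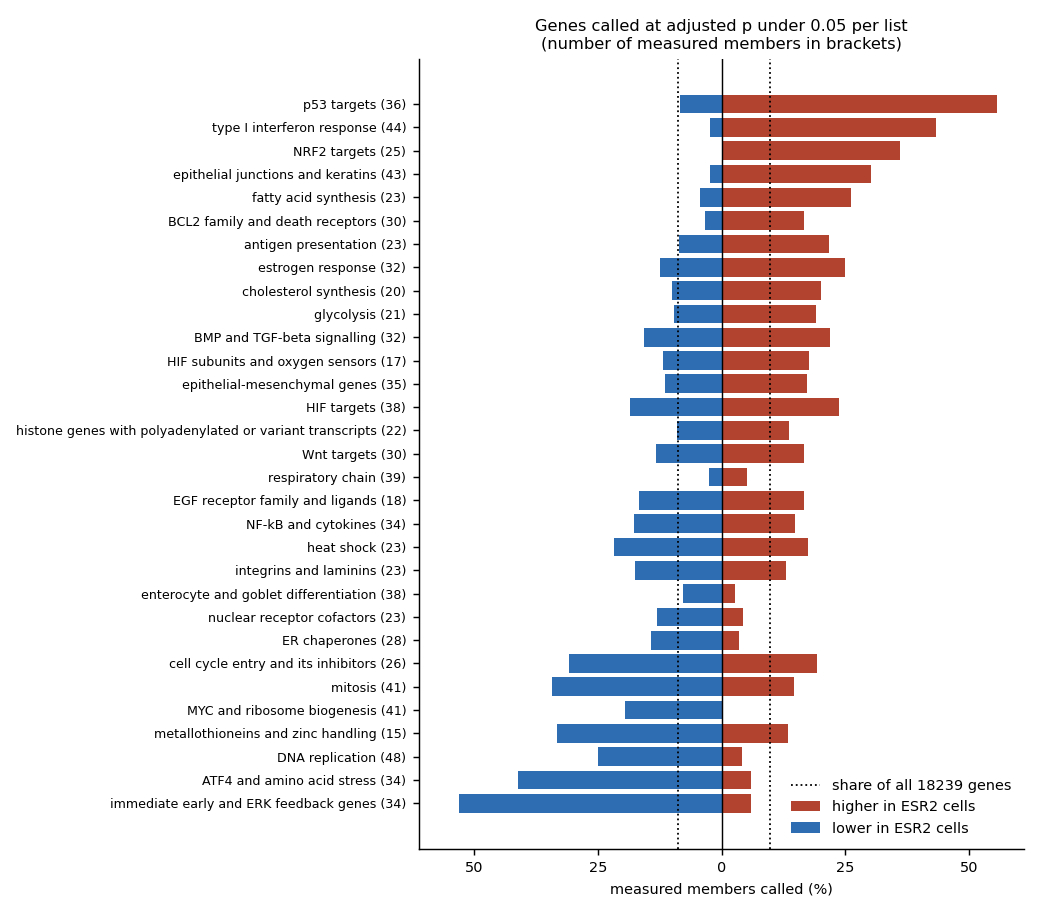
Share of the measured members of each of 31 gene lists that were called higher (red, to the right) or lower (blue, to the left) in ESR2 cells in normoxia, with dotted lines at the shares of all 18239 genes, 9.76% and 8.86%. The p53 list has 55.6% higher and the immediate early list 52.9% lower.

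Genes known to respond to estrogen in breast cells, many through estrogen receptor alpha, were measured without estradiol here. Of 32 genes 8 rose (25%, against 9.76% of all genes) and 4 fell (12.5%, against 8.86%), with a median of 0.04. Without replicate 2 these were 6 and 5, and without ESR2 replicate 1 the rises numbered 4. In the fit to the 6 arrays alone 2 rose and 1 fell, where 643 of all 18239 genes rose and 418 fell. Of the list 15 genes had means under 5 in both groups. RERG, a Ras-related growth inhibitor first found as estrogen-regulated, gave 3.19, 3.21 and 3.33 in ESR2 cells, against 2.48, 2.66 and 2.35 in parental cells (0.75, SE 0.086, limma adjusted p = 1.64e-06), all on the dim side of the array. Its means lay within the ranges of the fibroblast markers (2.43 to 3.92 in ESR2 cells, 2.39 to 3.87 in parental cells). Neither mean is therefore shown to be above background. MAPT, the tau protein gene, fell by 0.54 (SE 0.11), and SIAH2, a ubiquitin ligase, differed by -0.50 with all arrays and -0.32 without replicate 2. PGR, the progesterone receptor gene and a classical target, differed by -0.08 and was not called. Among the other receptors ESR1 differed by -0.10, ESRRG by 0.01 and ESRRA by -0.28 (limma adjusted p = 0.0525), none of them called, and GPER1, the membrane estrogen receptor, differed by 0.30 at an adjusted p of 0.0497, which was 0.133 without replicate 2. Of 23 nuclear receptor cofactors 1 rose (4.35%, against 9.76% of all genes) and 3 fell (13%, against 8.86%), with 0 and 1 without replicate 2. With single arrays left out 0 to 2 rose and 1 to 5 fell, most in both directions without parental replicate 1. CARM1, an arginine methyltransferase, differed by -0.49 with all arrays and -0.32 without replicate 2.

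The full estrogen response element, GGTCANNNTGACC on either strand, was found in 4 of the 14492 promoter windows (0.0276%), and in 0 windows of genes called in both fits. Its single arm, GGTCA, which also lies within the full element, was found in 35.3% of all windows, in 34.3% of those of genes that rose and in 35% of those that fell. The AP-1 site TGANTCA was found in 5.73% of all windows, in 4.61% of those of genes that rose and 4.36% of those that fell. Among the leading genes GGTCA was found in 4 of 12 windows of rises and 7 of 11 of falls (63.6%), and the AP-1 site in 0 of 12 and 3 of 11 (27.3%), shares that rest on few windows. Sites outside these 300 bases were not searched.

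Genes of the oxygen response were divided. Of 38 HIF targets 9 rose (23.7%) and 7 fell (18.4%), with a median of -0.01, and without replicate 2 these were 8 and 5, and the falls 4 without ESR2 replicates 1 or 2. ADM, the peptide adrenomedullin, gave 7.93, 7.62 and 7.69 in ESR2 cells, against 6.80, 7.15 and 6.92 in parental cells (0.79, SE 0.10, limma adjusted p = 6.17e-06), DDIT4, an inhibitor of mTORC1, gave 8.20, 7.97 and 7.98 in ESR2 cells, against 7.34, 6.72 and 7.46 in parental cells (0.87, SE 0.13), and BNIP3L, a mitophagy receptor, rose by 0.76 (SE 0.11). PLIN2, a lipid droplet protein, fell by 0.38 (SE 0.055). Of 17 HIF subunits and oxygen sensors 3 rose (17.6%) and 2 fell (11.8%), against 9.76% and 8.86% of all genes, with 2 and 1 without replicate 2. The falls numbered 1 to 4 with single arrays left out, most without parental replicate 1. HIF1A gave 10.39, 10.47 and 10.27 in ESR2 cells, against 10.11, 9.65 and 10.03 in parental cells (0.45, SE 0.091, adjusted p = 0.00112), and its difference was 0.31 without replicate 2; in the fit to the 6 arrays alone it was not called (adjusted p = 0.0873). ARNT2 rose by 0.43 (SE 0.099), and EPAS1, which encodes HIF-2 alpha, differed by 0.14 and was not called.

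Among the metabolic lists, 28.6% of glycolysis genes, 30% of cholesterol synthesis genes and 30.4% of fatty acid synthesis genes were called, against 7.69% of respiratory chain genes and 18.6% of all genes. Of 21 glycolysis genes 4 rose and 2 fell, with 3 and 1 without replicate 2 and with 2 to 3 and 1 to 2 in the fits that left out 1 array. ALDOC, an aldolase, rose by 0.33 (SE 0.063) and SLC2A1, the glucose transporter GLUT1, by 0.34 (SE 0.082). PFKFB4 differed by 0.27 (0.20 to 0.41 with single arrays left out), and its call was lost in 5 of those 6 fits and kept without parental replicate 2, at 0.41. PGK1 differed by -0.19 (-0.22 to -0.16), and its call was lost in 3 of them. Of 39 respiratory chain genes 2 rose (5.13%) and 1 fell (2.56%), shares below those of all genes, with 4 and 1 without replicate 2. The 3 with all arrays were NDUFA5 (0.27), UQCRB (0.29, not called without parental replicate 3 at 0.22 or ESR2 replicate 3 at 0.23) and NDUFA9 (-0.32). Leaving out single arrays gave rises of 1 to 4, fewest without ESR2 replicate 3 or parental replicate 3 and most without parental replicate 2, and falls of 1 to 3, most without parental replicate 1. Of 20 genes of cholesterol synthesis 4 rose and 2 fell, with 5 and 1 without replicate 2 and 7 rises without parental replicate 3, led by the sterol reductase TM7SF2 (0.66, SE 0.085) and the desaturase SC5D (0.57, SE 0.096). Of 23 genes of fatty acid synthesis 6 rose (26.1%) and 1 fell, with 5 and 2 without replicate 2 and 0 to 3 falls with single arrays left out, fewest without ESR2 replicates 2 or 3; SCD, the stearoyl-CoA desaturase, rose by 0.28 (SE 0.058) and ACSL5, an acyl-CoA synthetase, by 0.49 (SE 0.11).

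Many named genes have several probe sets, on which their differences were not of 1 size. Of 140 named genes that were called, 19 lost the call with the mean of their probe sets, 44 kept it with a difference that moved by over 1.5 times, and 0 turned in sign. Besides TGFBR1, CTNND1 and CDC45, calls were lost for SLC38A2 (0.37 with the mean), ARNT2 (0.10), HBEGF (-0.17), ATF6 (-0.22), RRP12 (-0.16), HEATR1 (-0.14), RELA (-0.11), BIRC5 (-0.09), MAPT (-0.15), SCD (0.12), SLC2A1 (0.25) and PFKFB4 (0.00). Among the leading genes that moved by over 1.5 times and are not yet given with it, the mean differed by 1.16 for TP53INP1, 1.01 for MAOB, 0.76 for IFIH1, 0.32 for NEBL, -1.18 for NT5E, -0.33 for DCLK1, -1.03 for GPAT2, -0.54 for NMT1 and -0.32 for SPCS3. For CDH1 it was 0.30, for HLA-DRA 0.88, for HLA-F 0.26, for SMAD7 -0.26, for ABCC2 0.44, for LAMB1 0.71 and for ESR2 itself 0.54. In the fit to the 6 arrays alone 40 of the 140 lost the call. Besides those given beside their values, they include SLC3A2, SLC7A11, DERL1, NFKBIE, RELA, ERAP1, RFC5, CHAF1B, KRT19, CARM1, SIAH2, MAPT, SLC2A1, ALDOC, SCD, RRP12, NDUFA5, CD68 and MYC.

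The same cells were measured with 10 nM estradiol in normoxia on 6 other arrays, which share no array with the comparison above. There 2494 genes were called (13.7%), 1542 higher (8.45%) and 952 lower (5.22%). Of the 2213 genes called in both fits 2173 had the same sign with estradiol (98.2%), 1533 were called the same way (69.3% of them, 61.5% of the 2494) and 0 the opposite way. Across these 2213 genes the 2 sets of differences correlated at 0.94, as a description of genes measured on the same probe sets and chosen for being called. Over all 18239 genes 67.7% had the same sign and the correlation was 0.75. Of the 30 leading genes 29 were called the same way with estradiol; FOSL1 differed by -0.68 at a limma adjusted p of 0.0722. Of 1183 genes called only when parental replicate 2 was included, 1064 (89.9%) had the same sign with estradiol. Of these 1183 genes 188 (15.9%) were called the same way, against 13.2% of all genes, and 0 the opposite way. Their differences correlated at 0.80. The difference between the 2 settings was tested as an interaction of ESR2 and estradiol, and 0 genes were called by limma; 1230 genes had an unadjusted p under 0.05 (6.74%), the smallest adjusted p was 0.215, and without replicate 2 these were 0, 875 and 0.335. That test does not show that the settings act alike.

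In hypoxia without estradiol 7369 genes were called between ESR2 and parental cells (40.4%; 20.4% higher and 20% lower), and with estradiol 8692 (47.7%; 27.8% higher and 19.8% lower). Of the 2213 genes 1386 (62.6%) had the same sign in hypoxia, where 958 were called the same way (43.3% of them, 13% of the 7369) and 442 the opposite way. In hypoxia with estradiol 1370 (61.9%) had the same sign, with 1082 called the same way (48.9% of them, 12.4% of the 8692) and 543 the opposite way. Over all genes the same sign was seen for 52.6% in hypoxia and 51.5% in hypoxia with estradiol. Of all 18239 genes 4038 (22.1%) were called the same way in hypoxia and 3331 the opposite way. In hypoxia with estradiol 4699 of all genes (25.8%) were called the same way and 3993 the opposite way. Replicates of the hypoxic ESR2 group with estradiol had 3′ minus 5′ indices of 3.42, 4.01 and 3.80 and 18S 5′ signals of 11.0 to 11.2, and the part of these in its calls was not tested. Of the 30 leading genes 26 were called the same way in hypoxia and 1, CCN1, the opposite way, at 0.77 (limma adjusted p = 0.000156). GDF15 differed by 2.99 in hypoxia and NT5E by -2.38, whereas CXCL10 differed by -0.04 (adjusted p = 0.83) and TRIM2 by 0.02 (adjusted p = 0.916).

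**Figure D5:**
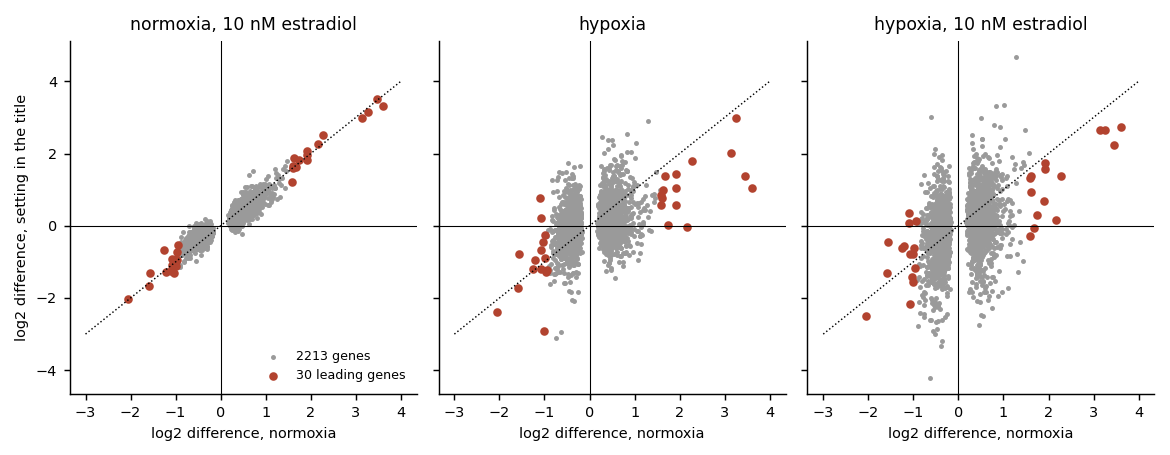
Log2 difference, ESR2 minus parental, of the 2213 genes called in both fits, in normoxia (horizontal) against normoxia with estradiol, hypoxia, and hypoxia with estradiol (vertical), with the 30 leading genes in red and a dotted line where both differences are equal. With estradiol in normoxia 98.2% of the genes keep their sign, and in hypoxia 62.6%.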

How the data were processed

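Total RNA of 24 samples of HCT116 cells, 3 in each of 8 groups, was hybridised to Affymetrix 3′ expression arrays, and the 6 arrays of normoxia without estradiol are described here. The authors deposited RMA signals on a log2 scale, computed with affy, per the submitters' processing notes; RMA corrects background, quantile-normalizes the arrays and summarises the probes of a set. The sources used here give no versions. Quantile normalization gives all arrays 1 distribution, so that shifts shared by most genes cannot be seen, and RMA understates differences of dim genes.

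Of 49386 probe sets 93 were controls, and 45253 had 1 gene symbol according to GEO's platform annotation, 1327 several and 2713 none. The 45253 represent 18239 genes, of which 11822 had more than 1 probe set, and the set with the highest mean over the 24 arrays stood for the gene. Symbols were checked against RefSeq by Entrez ID; 0 changed and 81 had no match.

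limma 3.58.1 in R 4.3.3 fitted 8 group means to all 24 arrays (16 residual degrees of freedom), with Benjamini-Hochberg adjustment over all genes and a threshold of 0.05. On simulated data with 18239 genes the step recovered 100% of genes changed by 1 and 81% of genes changed by 0.5 on the log2 scale for this comparison, and 6.7% of its calls were false. The simulation changed 100 genes by each size and used independent normal noise with 1 SD per gene. It held no array that stood apart, so these shares need not hold for the measured arrays. Figures were drawn with matplotlib 3.10.9.

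Named genes are the 15 largest rises and falls among genes called the same way with and without parental replicate 2, with groups that did not overlap and the brighter group above the median gene (4.97); up to 4 genes per list with the smallest p among those called in both fits; and the receptor genes and regulators ESR2, ESR1, ESRRA, ESRRG, GPER1, PGR, HIF1A, EPAS1, MYC, CCND1 and CDKN1A. Other list members are named after their values were seen. The comparison, the 35 lists and their members were chosen with earlier results of these data known, so counts over lists carry no test.

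The alternatives changed the scaling (a repeated quantile normalization, centring on array medians), the features (without the dimmest genes, probe sets averaged per gene, each probe set tested by itself), the model (array weights, a robust prior with an intensity trend, the replicate number as a block, the 3′ minus 5′ index as covariate) and the arrays (only those compared, and each left out in turn); the fit to only the arrays compared without parental replicate 2 was chosen after seeing the data. Promoter windows are from RefSeq, GRCh38.p14, and motifs were searched on both strands.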

Additional observations from a re-analysis of the deposited data

Results flagged for a closer look

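The difference between ESR2 and parental cells without estradiol was larger or smaller in normoxia than in hypoxia for many genes. The interaction of ESR2 and oxygen, here the normoxia difference minus the hypoxia difference on the log2 scale, was called by limma at a Benjamini-Hochberg adjusted p under 0.05 for 5597 of 18239 genes (30.7%). Leaving out parental normoxia replicate 2 gave 5762 genes (31.6%). Among the 30 leading genes 19 were called, 11 of the rises and 8 of the falls, and all 19 were called without that array too.

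The rises that exceeded those in hypoxia were led by MAL2, the apical transport protein, which differed by 3.61 in normoxia and 1.04 in hypoxia (interaction 2.57, limma adjusted p = 1.62e-08). CXCL10, the interferon-induced chemokine, differed by 2.17 in normoxia and -0.04 in hypoxia (interaction 2.21), and TRIM2 by 1.74 and 0.02 (interaction 1.72). The sensor gene IFIH1 had an interaction of 0.84. GASK1B had an interaction of 2.08, DIRAS3 of 1.35, SMARCA1 of 1.12, NEBL of 1.02, PDE4B of 0.87, CD24 of 0.74 and MAOB of 0.62. All 11 were positive, a direction that the choice of these genes favours, since they were picked for their large difference in normoxia, from which the interaction subtracts that in hypoxia. The same choice favours falls that are larger in normoxia.

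The falls went both ways. CCN1, the matrix protein induced by growth factors, differed by -1.10 in normoxia and 0.77 in hypoxia (interaction -1.88, limma adjusted p = 2.5e-07). KLF10 differed by -1.07 in normoxia and 0.21 in hypoxia (interaction -1.28). GPAT2 had an interaction of -0.79, NMT1 of -0.72, F3, tissue factor, of -0.59 and CSTA of -0.42, all falls that were larger in normoxia. KRTAP2-3 differed by -0.9999 in normoxia and -2.91 in hypoxia (interaction 1.91), and SPCS3 by -0.97 and -1.29 (interaction 0.32), falls that were larger in hypoxia. Parental arrays of both oxygen settings enter each interaction.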

How the results depend on the processing

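Of 480 values of the 30 leading genes under the alternatives, 479 kept their direction and call, and FOSL1 lost its call in the fit to the 6 arrays alone. The rule that chose these genes fixed this outcome without parental replicate 2 and, through their large differences, favoured it elsewhere. Genes named from lists were also chosen for being called in both fits. Over all 146 named genes 2217 of 2329 values kept both, 104 lost and 6 gained a call, and 2 reversed, both CCND1, at -0.22 with array weights and -0.24 without parental replicate 2 (-0.24 to 0.16 with single arrays left out; -0.42 with the mean of its probe sets, not called); the cause was not tested. Of 1050 list counts 247 moved by over 1.5 times. For the normoxia comparison 6609 probe sets were called when every probe set was tested (3461 higher, 3148 lower), 5187 genes with array weights (2777 higher), and 1061 in the fit to the 6 arrays alone (643 higher, 418 lower), which has fewer samples to estimate the spread. That fit without parental replicate 2, added after seeing the data, called 2127 (885 lower). With single arrays left out the falls numbered 991 to 1968. Centred arrays gave 1422 rises and 2185 falls, 39.4% higher against 52.4%. In normoxia with estradiol every probe set gave 4797 (2785 and 2012), array weights 4437 (2551 and 1886), the arrays compared alone 3772 (1485 lower), centring 1681 lower, and single arrays left out 592 to 757 lower. In hypoxia every probe set gave 15909 (8017 and 7892) and centring 5612 lower, and in hypoxia with estradiol every probe set gave 19295 (10314 and 8981). The interaction with estradiol had 1 call with the mean of probe sets (1 lower), 29 with array weights (12 and 17) and 0 to 1 with single arrays left out (0 to 1 lower), and that with oxygen 11058 with every probe set (5188 and 5870) and 3958 higher with array weights. Why these counts moved was not tested.

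Deviations of same-numbered ESR2 and parental arrays from their group means correlated at 0.29, -0.19 and -0.24. Parental replicate 2, which stood apart, enters the parental mean. These correlations therefore cannot decide whether replicate numbers pair the arrays. With the replicate block 3227 genes were called (1686 higher, 1541 lower). Differences of dim genes are limited, since 9011 of 18239 genes had means under 5 in both groups, and 3 arrays per group leave small differences unresolved.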

Other observations

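Large differences were not spread evenly over the signal range. Of the 42 genes that were at least 2-fold higher in ESR2 cells with and without parental replicate 2, the median signal was 6.77 in ESR2 cells and 5.00 in parental cells, and for 21 of them (50%) the parental mean lay under 5. Of the 8 genes at least 2-fold lower, the median was 5.81 in ESR2 cells and 7.37 in parental cells, and 1 had its ESR2 mean under 5. All 42 rises and all 8 falls had the same sign in normoxia with estradiol, where 36 and 8 again reached 2-fold.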
